A study of Mus musculus with 2 samples.

Results

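The 10 genes described here encode immune checkpoint receptors and their ligands, picked by gene symbol, with no threshold on a measured value. They are the receptors Pdcd1, Ctla4, Lag3, Havcr2 and Tigit, the ectoenzyme Entpd1, and the ligands Cd274, Pdcd1lg2, Cd80 and Cd86, out of 55401 genes in the matrix. All 10 were found in it. They were followed across 19 classes of immune cells, set by counts of marker transcripts, and across both libraries.

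The samples were white blood cells of mouse lung, sorted as live cells that carry CD45, the surface marker of leukocytes, and sequenced with a droplet-based 3' method that counts unique molecular identifiers (UMIs). The labels describe 1 WT sample and 1 Siah1a/2 KO sample, both taken 7 weeks after the first dose of urethane, a carcinogen that induces lung tumours. Siah1a and Siah2 encode ubiquitin ligases. Age, sex, strain, the way the genes were inactivated and the number of mice behind each library were not given in the sources used here. The matrix held 2 libraries told apart by a barcode suffix, and nothing ties a suffix to a genotype. They are called library 1 and library 2, and no comparison of genotypes was made. With 1 library of each there was no replicate check and no test: every interval is an exact 95% interval for counting error alone.

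Library 1 held 8066 cells after filtering, with a median of 8661 UMIs, and library 2 held 6113, with a median of 7875. Of the 14179 cells, 12864 fell into a class and 6331 of these into a T cell class by their Cd3 transcripts. The largest classes were CD8 T cells (4140 cells), NK cells (2035), classical monocytes (1089) and macrophages (1058). Some classes were thin: migratory dendritic cells came to 106 cells, neutrophils to 215 and plasmacytoid dendritic cells to 47. Transcripts of other lung cells varied by gene. Sftpc, of alveolar epithelium, had 2 and 1 UMIs among all kept cells of libraries 1 and 2, and Cldn5, of endothelium, had 0 in both. Epcam, an epithelial marker, had 485 and 400, Pecam1, of endothelium and also of leukocytes, 2094 and 1670, and Col3a1, of fibroblasts, 31 and 133. Red cell Hba-a1 had 527 and 15. A further 671 cells carried both Cd3 and complement C1q transcripts and were kept apart as a class of their own, called T and macrophage. Macrophage transcripts were also spread through the other classes and unevenly between libraries: the 6 macrophage markers summed to 286 UMIs per 1000000 in CD8 T cells of library 1 and 211 in library 2, and to 221 and 82.6 in NK cells. These sums are limited by the gates, which kept cells with 5 or more C1q UMIs out of both classes.

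Checkpoint receptors hold lymphocytes in check. PD-1, encoded by Pdcd1, recruits phosphatases to the antigen receptor when it binds PD-L1 (Cd274) or PD-L2 (Pdcd1lg2), and CTLA-4 competes with the stimulatory receptor CD28 for CD80 and CD86. In lung tumours, CD8 T cells under lasting stimulation carry several of these receptors at once, while myeloid and dendritic cells supply many of the ligands. CTLA-4 is also a constant feature of regulatory T cells, and CD39, encoded by Entpd1, breaks down extracellular ATP on the way to adenosine.

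Promoter sequences are shown for 3 members: Ctla4, which differed most between the libraries among the members in CD8 T and NK cells, and Cd274 with Pdcd1lg2, neighbours on chromosome 19 that share the receptor PD-1. Both were high in migratory dendritic cells, but only Cd274 was high in monocytes and neutrophils. RefSeq windows on GRCm38.p6 were available for 8 of the 10 members. Each line gives the 250 bases before the RefSeq start, 5' to 3', with GGAAA, the core recognised by NFAT factors, or its reverse complement TTTCC, in capitals. Ctla4 lies at chr1:60908775-60909024 on the plus strand, Cd274 at chr19:29367188-29367437, also plus, and Pdcd1lg2 at chr19:29410669-29410918, also plus.
Ctla4: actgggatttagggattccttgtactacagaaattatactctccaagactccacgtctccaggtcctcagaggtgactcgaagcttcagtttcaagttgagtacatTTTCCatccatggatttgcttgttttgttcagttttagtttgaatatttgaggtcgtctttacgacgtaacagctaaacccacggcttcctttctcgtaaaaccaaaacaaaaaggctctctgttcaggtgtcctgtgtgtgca
Cd274: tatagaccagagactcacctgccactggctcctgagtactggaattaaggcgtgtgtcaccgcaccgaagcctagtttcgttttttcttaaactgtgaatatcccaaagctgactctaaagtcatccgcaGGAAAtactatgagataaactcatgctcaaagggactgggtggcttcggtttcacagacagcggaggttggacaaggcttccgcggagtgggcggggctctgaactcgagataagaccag
Pdcd1lg2: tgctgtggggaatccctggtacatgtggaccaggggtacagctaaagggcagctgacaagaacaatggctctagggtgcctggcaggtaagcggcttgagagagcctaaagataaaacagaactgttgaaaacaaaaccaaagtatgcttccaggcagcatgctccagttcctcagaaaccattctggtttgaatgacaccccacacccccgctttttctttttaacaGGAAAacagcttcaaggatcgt
Each of these 3 stretches held 1 match to GGAAA, counting both strands, and 55.6% of the 32851 mouse promoter stretches of that length held at least 1, so the match sets none of them apart. On either strand, the interferon-gamma activated site TTCNNNGAA (in 7.02% of promoters), the interferon response element (in 2.98%) and the AP-1 letters TGANTCA (in 6.75%) were not among the letters of these stretches.

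Levels below are UMIs per 1000000 UMIs of the class (CPM). With a 3' method 1 transcript gives 1 UMI whatever its length, but capture differs between genes, so levels were compared between classes for 1 gene and not between genes. Fewer positive cells and less RNA per positive cell cannot be told apart in a class sum. For that reason the share of cells with a UMI is also given, after each cell was thinned to 3000 UMIs.

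Pdcd1 (chr1:94038305-94052553, minus strand) was highest in CD8 T cells, at 339 CPM in library 1 and 307 in library 2. These cells held 70.6% and 73.9% of all Pdcd1 UMIs of their library. CD4 T cells came next among the single lineages, at 130 and 106 CPM, and gamma-delta T cells stood at 81.2 and 119. Regulatory T cells were low, at 62.9 and 32.4. T cells with NK receptors had 94.5 and 91.0. The intervals of gamma-delta T cells overlapped those of both these neighbours in each library, while CD4 T cells and T cells with NK receptors overlapped in library 2 only. After thinning, a Pdcd1 UMI was found in 52.7% of CD8 T cells (interval 50.5 to 54.8%) in library 1 and 48.2% (45.9 to 50.5%) in library 2, against 0.769% and 0.528% of macrophages and 2.01% and 1.47% of NK cells. NK cells had 8.30 and 10.4 CPM, under every T cell class. Migratory dendritic cells, at 24.8 and 42.5 CPM from 19 and 29 UMIs, were above every other non-T class in both libraries by their point values.

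Ctla4 (chr1:60887000-60915832, plus strand) was highest in regulatory T cells, at 952.5 CPM in library 1 and 913 in library 2, where 76.0% and 71.1% of thinned cells held a UMI. T cells that met the limits of no single T lineage (other T, 421 and 497) and CD4 T cells (408 and 470) followed and overlapped. CD8 T cells had 205 and 339, and T cells with NK receptors 154 and 148. NK cells also carried it, at 67.7 and 127 CPM, in 12.6% and 22.2% of thinned cells. In macrophages 0.462% and 0.528% of cells held a UMI, and in classical monocytes 2.22% and 0.419%, cell types that should lack the transcript. The NK shares were above those levels in both libraries. T cell markers in NK cells summed to 46.9 and 38.8 CPM. The NK gate took only cells with fewer than 2 Cd3 UMIs, so this sum is limited by the gate. The part of T cell RNA in the Ctla4 level was not tested.

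Lag3 (chr6:124904361-124911705, minus strand), whose product binds MHC class II, was high in CD8 T cells, at 298 CPM and 377. The only other class at that level was the plasmacytoid dendritic cell, a specialised interferon producer, at 436 and 259 CPM from 98 and 74 UMIs in 21 and 26 cells. The order of the pair reversed: the plasmacytoid level was above that of CD8 T cells in library 1 and below it in library 2, without overlap of the intervals in either. Between the libraries the plasmacytoid level had a log2 ratio of -0.75 (-1.21 to -0.30). Regulatory T cells (191 and 229) and other T cells (191 and 227) came next, NK cells stood at 90.5 and 97.9, and gamma-delta T cells at only 9.28 and 30.6. The conventional, migratory and myeloid classes were all under 20 CPM.

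Havcr2 (chr11:46454935-46481255, plus strand), which encodes TIM-3, was shared between T and myeloid cells. CD8 T cells had 111 CPM and 133, non-classical monocytes 116 and 125, cDC1 119 and 116, and other myeloid cells 122 and 107, and these 4 classes stood close, though in library 2 CD8 T cells (128 to 139) and other myeloid cells (91.95 to 124) did not overlap. Macrophages had 81.3 and 79.3. NK cells, at 4.85 and 5.05, and plasmacytoid dendritic cells, with 0 UMIs in both libraries (a floor of 3 UMIs would be 13.4 and 10.5 CPM), were at the bottom.

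Tigit (chr16:43648867-43664146, minus strand), a receptor for the nectin-like protein encoded by Pvr, was thinly sampled, with 424 and 262 UMIs in all. Regulatory T cells had 17.7 and 14.6 CPM, CD4 T cells 11.3 and 13.9, and CD8 T cells 7.45 and 6.69. Only 2.28% and 2.35% of thinned CD8 T cells held a UMI. No thinned macrophage or monocyte did, in either library. Outside T and NK cells no class held more than 2 UMIs in a library, apart from the T and macrophage class (54 and 18), and gamma-delta T cells held 0 in both.

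Entpd1 (chr19:40612366-40741602, plus strand) was led by neutrophils, at 583.5 CPM in library 1 and 410 in library 2, from 149 and 203 UMIs. Macrophages (106 and 114), other myeloid cells (83.5 and 110) and classical monocytes (85.5 and 99.1) formed the next group, together with regulatory T cells (81.0 and 94.8). CD8 T cells had 73.8 and 64.7 CPM, with a UMI in 19.6% and 16.7% of thinned cells, while NK cells had 14.4 and 10.4. Neutrophils were shallow, with a median of 2533 and 2693 UMIs, so only 25 and 44 of them reached the thinning depth; 17 and 31 of those held an Entpd1 UMI.

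**Figure D1:**
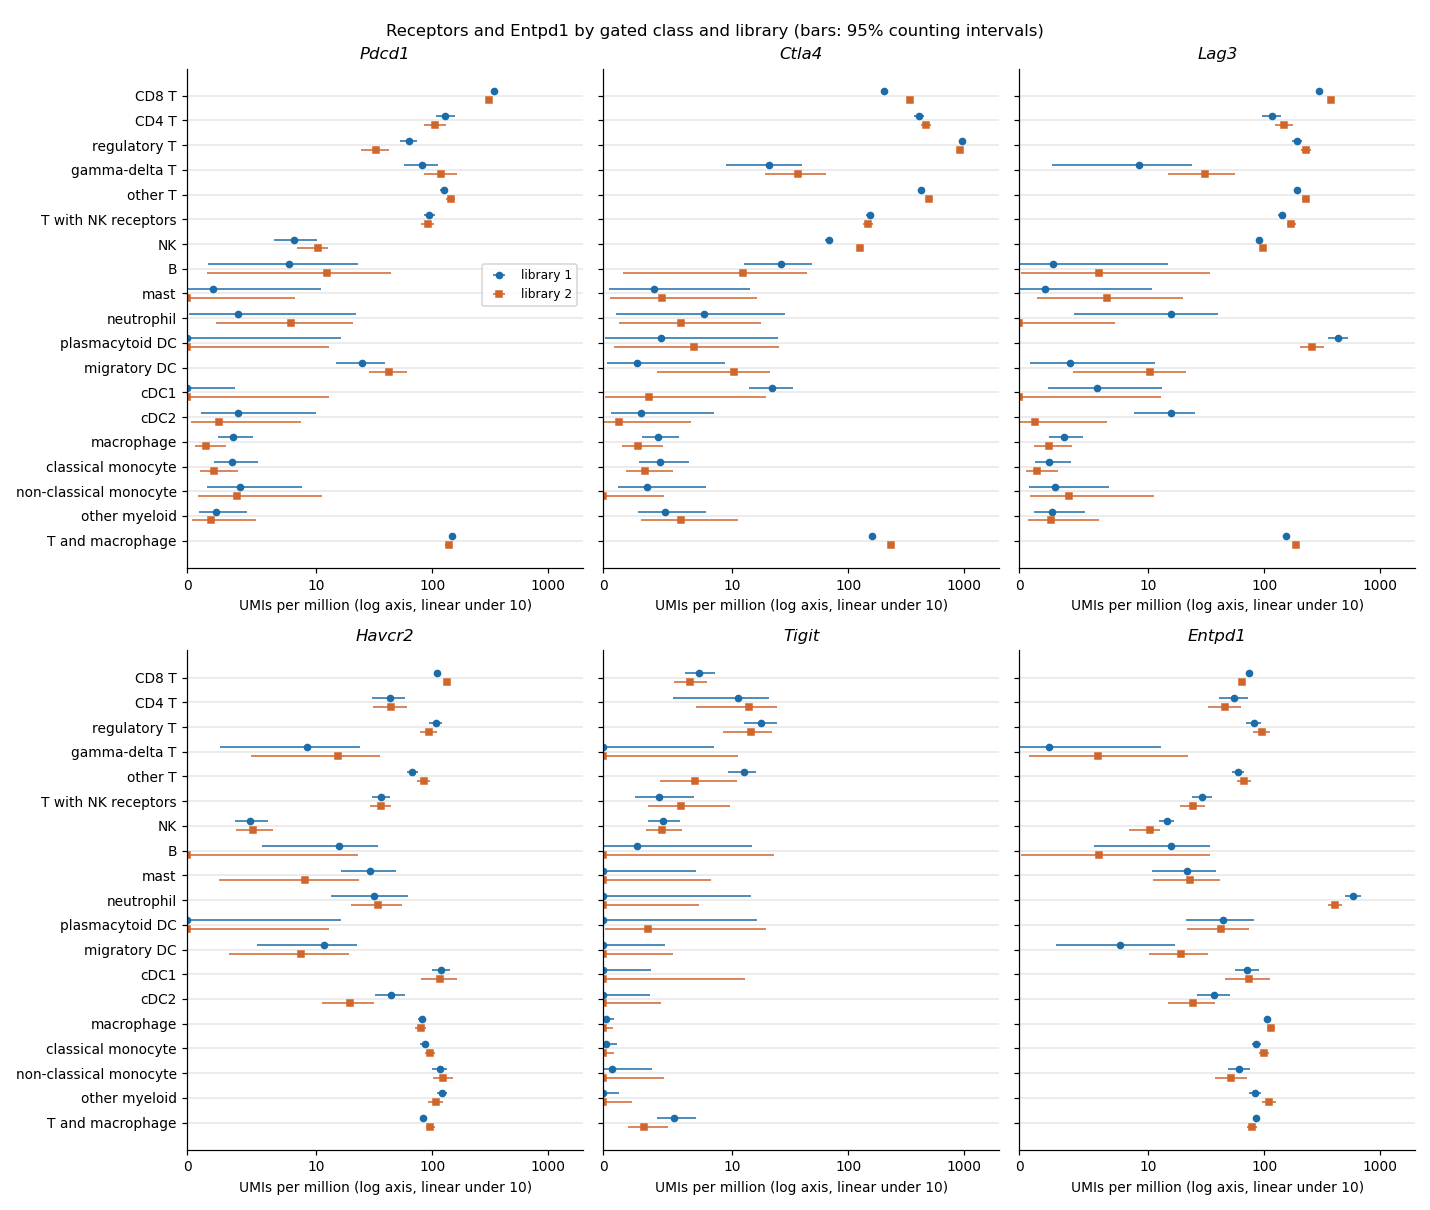
Level of each receptor and of Entpd1 in CPM (horizontal axis, logarithmic above 10 and linear below) in the 19 gated classes, circles for library 1 and squares for library 2, with 95% counting intervals. Pdcd1 and Ctla4 sit to the right only in T cell rows, with Ctla4 also in NK cells at 67.7 and 127, while Havcr2 and Entpd1 extend into the myeloid rows and Lag3 has a second high row in plasmacytoid dendritic cells.

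Cd274 (chr19:29367455-29388095, plus strand), which encodes PD-L1, was found in every class. Neutrophils had 803 CPM in library 1 and 400 in library 2, and migratory dendritic cells 454.5 and 409, and the intervals of these overlapped in library 2 but not in library 1. The neutrophil level of library 1 was lower under stricter cell limits, as given below. The monocyte and other myeloid classes lay between 148 and 199, macrophages at 102 and 135, and gamma-delta T cells at 153 and 150. CD8 T cells had 63.5 and 76.4 and NK cells 72.8 and 73.5. In thinned migratory dendritic cells 74.5% and 76.0% held a UMI, against 16.2% and 18.6% of CD8 T cells.

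Pdcd1lg2 (chr19:29410919-29471161, plus strand), which encodes PD-L2, begins 22.8 kb after the end of Cd274 but followed another pattern. Migratory dendritic cells were highest, at 191 CPM and 211. The next classes were lymphoid: NK cells had 83.8 and 101, T cells with NK receptors 87.2 and 94.0, regulatory T cells 63.4 and 57.2, and CD8 T cells 54.6 and 56.6. Macrophages had 8.64 and 20.9 and classical monocytes 5.77 and 5.78. Classical monocytes thus held much Cd274 and little Pdcd1lg2: 0.853% and 0.839% of thinned cells had a Pdcd1lg2 UMI, against 22.7% and 26.4% of NK cells. NK cells without any macrophage marker UMI still had 101 and 97.9 CPM.

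Cd80 (chr16:38455561-38496335, plus strand) was highest in migratory dendritic cells, at 209 CPM and 197, followed by neutrophils, at 94.0 and 139 from 24 and 69 UMIs. Migratory dendritic cells held 10.3% and 11.2% of all Cd80 UMIs, and the far larger class of CD8 T cells 15.5% and 18.95%. Monocytes and other myeloid cells lay between 28.0 and 47.2, CD8 T cells had 11.1 and 13.3, and NK cells 1.23 and 2.18. Regulatory T cells, at 24.9 and 22.9, were above CD8 T cells in both libraries. Macrophage markers were also higher in regulatory T cells, at 618 and 469 CPM, against 286 and 211 in CD8 T cells. The part of macrophage RNA in the Cd80 values was not tested.

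Cd86 (chr16:36603869-36666081, minus strand) was highest in migratory dendritic cells, at 424.5 CPM in library 1 and 320 in library 2. Other myeloid cells (253.5 and 291), cDC1 (237 and 229), classical monocytes (204 and 191.5), non-classical monocytes (194 and 199), macrophages (188 and 203), cDC2 (169 and 220) and B cells (187 and 148) came next. CD8 T cells also had 87.7 and 88.0 CPM, far above NK cells at 10.2 and 11.2 and mast cells at 13.7 and 20.5. In CD8 T cells with no UMI of any macrophage marker the level was 91.7 and 78.9, against 87.0 and 96.2 in those with such a UMI. The same split gave another picture in the other T cells: regulatory T cells without macrophage UMIs had 30.3 and 30.8 against 71.1 and 102 with them, and CD4 T cells had 29.0 and 27.8 against 102 and 73.7. Csf1r, a macrophage gene, was at 0 in the cells without macrophage UMIs by construction and at 23.1 and 39.4 CPM in the other CD8 T cells.

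**Figure D2:**
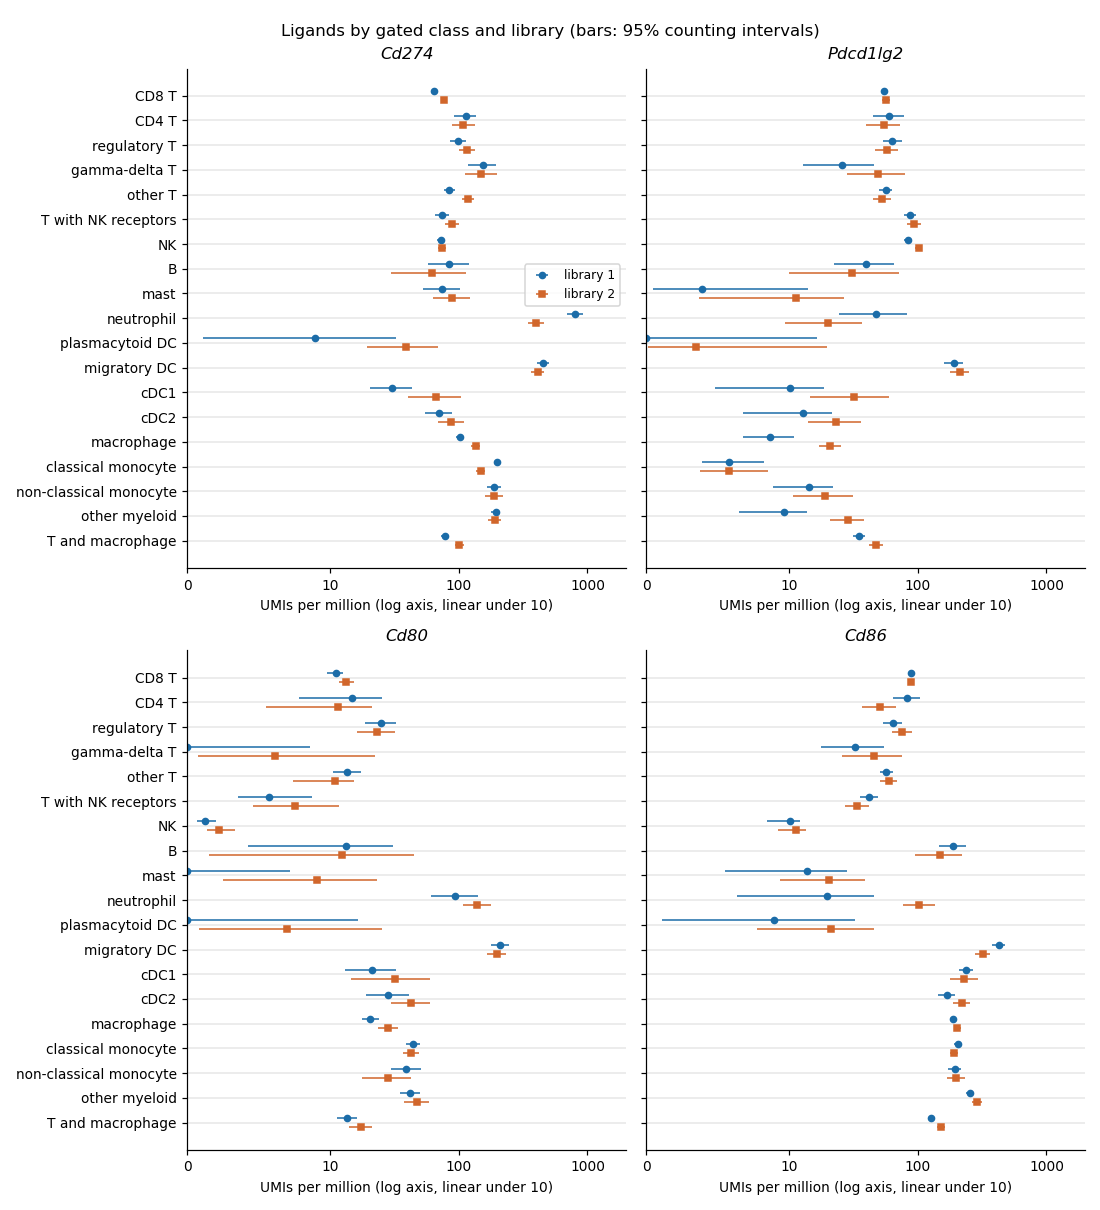
Level of each ligand in CPM (horizontal axis, logarithmic above 10 and linear below) in the 19 gated classes, circles for library 1 and squares for library 2, with 95% counting intervals. Migratory dendritic cells are at or near the right edge of all 4 panels. For Cd274 neutrophils are at 803 and 400 and migratory dendritic cells at 454.5 and 409. Pdcd1lg2 is higher in NK and T cell rows than in monocyte rows.

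Between the libraries most members differed little within a class. A gene was counted as different where its ratio passed 1.5 times and both libraries together held at least 50 UMIs. In CD8 T cells 1 of the 10 members passed, against 7.21% of the 11930 genes compared in the same cells, and in NK cells 1 of 9, against 5.91% of genes. In both classes it was Ctla4. The members' median log2 ratio of library 2 over library 1 was 0.16 in CD8 T cells and 0.11 in NK cells, against 0.04 for all genes in each class. Counting intervals are narrow in the large classes, where 33.0% of all CD8 T cell genes had one that excluded 0, so an interval clear of 0 is a common event there.

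Ctla4 in CD8 T cells was 205 CPM in the first library and 339 in the second, a log2 ratio of 0.73 (interval 0.67 to 0.78). The share of thinned cells with a UMI was 38.2% and 52.6%. In NK cells it was 67.7 and 127 CPM, a log2 ratio of 0.90 (0.78 to 1.03). Cells without any macrophage marker UMI gave 216 and 390 CPM among CD8 T cells and 58.8 and 121 among NK cells. That split kept unlike parts of the libraries. A macrophage marker UMI was in 80.2% and 44.8% of CD8 T cells and in 83.15% and 43.6% of NK cells. The cells kept were not matched for depth, and the part of macrophage RNA in the Ctla4 ratios was not tested beyond the split. Other T cells had a log2 ratio of 0.24 (0.14 to 0.34), whereas regulatory T cells had -0.06 (-0.16 to 0.04) and T cells with NK receptors -0.06 (-0.25 to 0.13). Whether these ratios differ between classes was not tested.

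The neighbours of Ctla4 on chromosome 1 are other members of its receptor family: Cd28 lies before it (chr1:60716800-60773359) and Icos after it (chr1:60977927-61000320), both plus strand. Icos, an activating receptor, was 194 and 341 CPM in CD8 T cells, a log2 ratio of 0.81 (0.76 to 0.87). It passed the ratio limit set above for the members, as did 7.21% of all genes in CD8 T cells. Cd28 was 272 and 363 there. In regulatory T cells, where Ctla4 was level, Icos had 1078 and 1224 and Cd28 339 and 376. Both neighbours belong to the pathway list described below. In NK cells, where Ctla4 passed the limit, 0 of the 22 genes of that list that could be compared did so. Whether the neighbours differ together with Ctla4 was not tested.

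The other receptors differed less between the libraries in CD8 T cells. Lag3, at 298 and 377 CPM, had a log2 ratio of 0.34 (0.29 to 0.39), and Havcr2 one of 0.27 (0.18 to 0.35). Pdcd1, at 339 and 307, had -0.14 (-0.20 to -0.09) and Entpd1 -0.19 (-0.30 to -0.08). Lag3 was higher in library 2 in regulatory T cells (0.26), other T cells (0.25) and T cells with NK receptors (0.27) as well, each by less than 1.5 times and each with an interval above 0.

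Among regulatory T cells 1 of 10 members passed 1.5 times, against 9.62% of genes. It was Pdcd1, with 139 and 51 UMIs, or 62.9 and 32.4 CPM. The log2 ratio was -0.95 (-1.45 to -0.48). Thinned cells with a UMI numbered 42 of 246 and 13 of 166. Without cells holding a macrophage marker UMI the values were 45.5 and 36.0 CPM from 18 and 21 UMIs, a log2 ratio of -0.34 (-1.32 to 0.66), so a difference was not detectable in those cells at this depth. CD4 T cells had 1 of 8 members past 1.5 times, against 10.5% of genes: Cd86, at 82.3 and 50.8 CPM, a log2 ratio of -0.69, which was -0.10 (-1.52 to 1.52) in cells without macrophage UMIs. The macrophage marker sum in CD4 T cells was 665 and 368 CPM, and its part in the Cd86 value was not tested beyond that split. In other T cells 1 of 10 passed, against 7.53% of genes: Tigit, at 12.6 and 7.12 CPM from 62 and 21 UMIs. T cells with NK receptors had 0 of 8, against 7.13%.

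In macrophages and other myeloid cells the difference past 1.5 times lay in a PD-1 ligand. Macrophages had 1 of 6 members past 1.5 times, against 7.73% of genes, and other myeloid cells 1 of 6, against 8.07%. In both it was Pdcd1lg2, which remained low: 8.64 and 20.9 CPM in macrophages, from 73 and 100 UMIs, a log2 ratio of 1.27 (0.83 to 1.73), and 9.64 and 28.45 in other myeloid cells, from 30 and 47 UMIs, a log2 ratio of 1.55 (0.87 to 2.27). T cell markers in macrophages summed to 30.9 and 20.5 CPM and NK markers to 8.05 and 6.70. Cells with 2 or more Cd3 UMIs, or 3 or more of Ncr1 and Klrb1c, were kept out of the myeloid classes. Both sums are thus limited by the gates. The part of RNA from other cells in the Pdcd1lg2 values was not tested. Cd274 was also higher in macrophages of library 2, at 102 and 135 CPM (0.41, 0.26 to 0.55), and lower in classical monocytes, at 199 and 148 (-0.43, -0.57 to -0.28).

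Classical monocytes had 0 of 6 members past 1.5 times (6.54% of genes), non-classical monocytes 0 of 5 (8.94%) and migratory dendritic cells 0 of 4 (14.9%). In migratory dendritic cells the 4 ligands thus stood close in both libraries, Cd86 being the most different at 424.5 and 320 CPM (-0.41, -0.66 to -0.16). The cDC2 had 3 of 5, against 11.1% of genes. Havcr2 in them was 43.9 and 19.5 CPM from 45 and 16 UMIs, while Entpd1 (38 and 20 UMIs) and Cd80 (29 and 35 UMIs) had intervals that included 0.

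Neutrophils had 2 of 4 members past 1.5 times, in a class where 19.2% of genes passed. Cd274 was 803 CPM in library 1 (205 UMIs in 78 cells) and 400 in library 2 (198 UMIs in 137 cells). Its log2 ratio was -1.01 (-1.295 to -0.72). Among neutrophils held to stricter limits, from 1000 genes up and with mitochondrial UMIs no higher than 5%, the log2 ratio was -0.30 (-0.74 to 0.15) and library 1 had 449 CPM. Cd86 had 5 and 51 UMIs, and 17 of the 51 were in a single cell. Without the deepest 5% of cells its log2 ratio was 0.45 (-1.20 to 2.67) in place of 2.27.

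**Figure D3:**
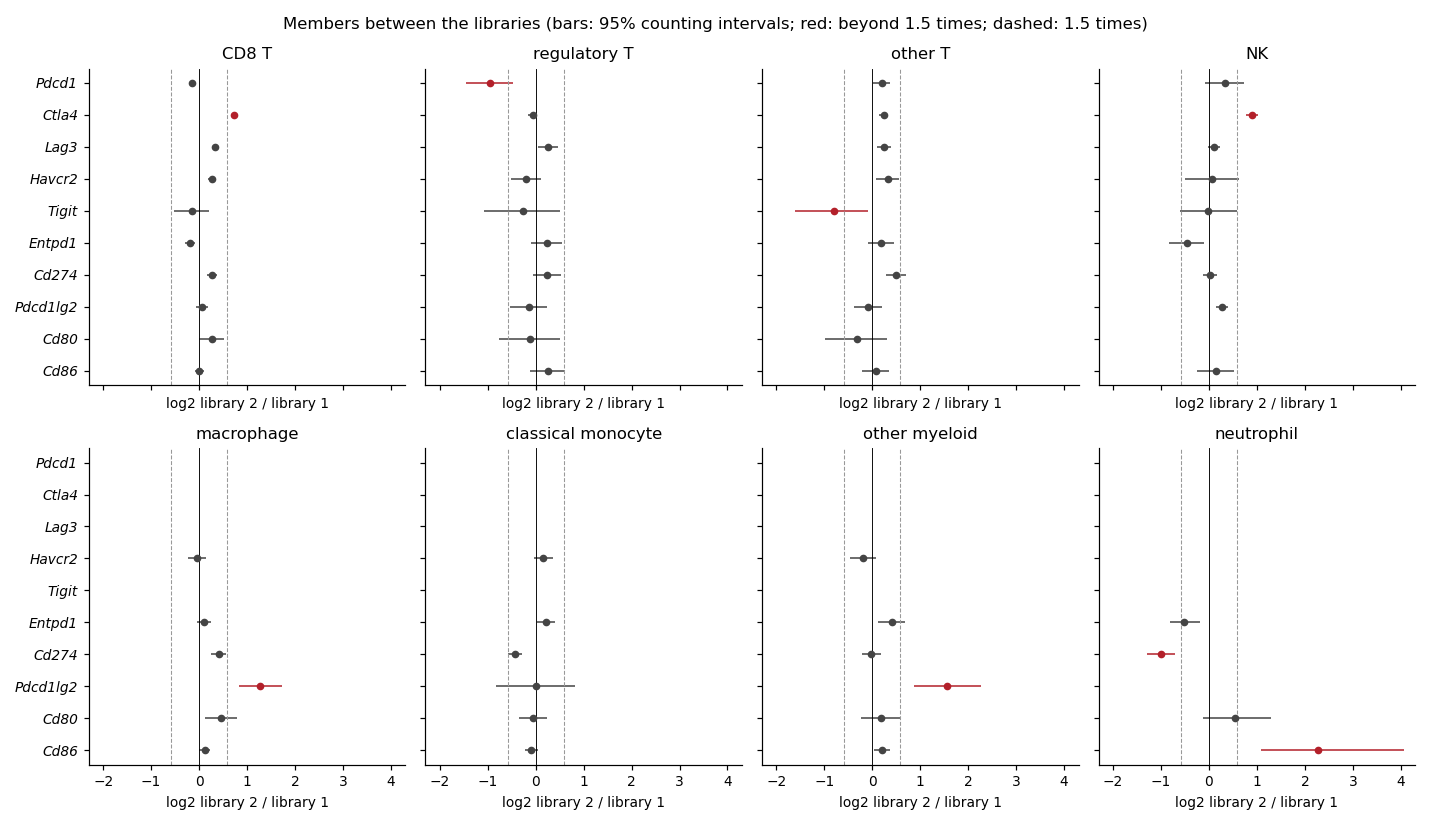
Log2 ratio of library 2 over library 1 for each member (rows) in 8 gated classes (panels), with 95% counting intervals, and only where both libraries together held at least 50 UMIs. Red points lie beyond 1.5 times. To the right are Ctla4 in CD8 T cells (0.73) and NK cells (0.90), Pdcd1lg2 in macrophages (1.27) and other myeloid cells (1.55), and Cd86 in neutrophils (2.27). To the left are Pdcd1 in regulatory T cells (-0.95), Tigit in other T cells (-0.80) and Cd274 in neutrophils (-1.01).

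CD8 T cells were then divided by 3 sets of transcripts that are not members: Tcf7, cycling genes and macrophage markers. Tcf7, a transcription factor of naive and progenitor T cells, split them most clearly. The 122 and 100 cells with at least 2 Tcf7 UMIs had 131 and 97.5 CPM of Pdcd1, against 360.5 and 331 in the 1957 and 1721 cells with none. Lag3 was 73.6 and 97.5 against 319 and 413, Havcr2 16.3 and 26.4 against 119 and 147, and Entpd1 16.3 and 20.3 against 79.2 and 70.2. Ctla4 was 94.99 and 188 against 214 and 357. These 5 genes were thus lower together in Tcf7-bearing cells of both libraries, and the counting intervals did not overlap for any of them. Tigit, thinly sampled, is not given for this split. The share of all genes that differed as much between these subsets was not determined. Cd274 was not lower in those cells, at 73.6 and 89.4 CPM against 63.2 and 74.1. The median depth was alike, at 7856.5 and 7696.5 UMIs against 7982 and 7147.

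Cycling, taken as at least 3 UMIs of Mki67, Top2a and Birc5 together, went with smaller and mixed differences. Ctla4 was 162 and 248 CPM in the 385 and 211 cycling CD8 T cells and 216 and 358 in those with none of these UMIs. Lag3 was 248.6 and 311.5 against 308 and 387, and Cd274 40.3 and 45.3 against 77.3 and 87.9. Pdcd1 was 373.5 and 302 against 316 and 294. Cycling cells were far deeper, with medians of 16914 and 15048 UMIs against 6714 and 6625, and the part of depth in these values was not tested. Ctla4 was higher in library 2 in each of these subsets: Tcf7-bearing or not, cycling or not, and with or without macrophage UMIs (203 and 292.5 CPM with them).

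**Figure D4:**
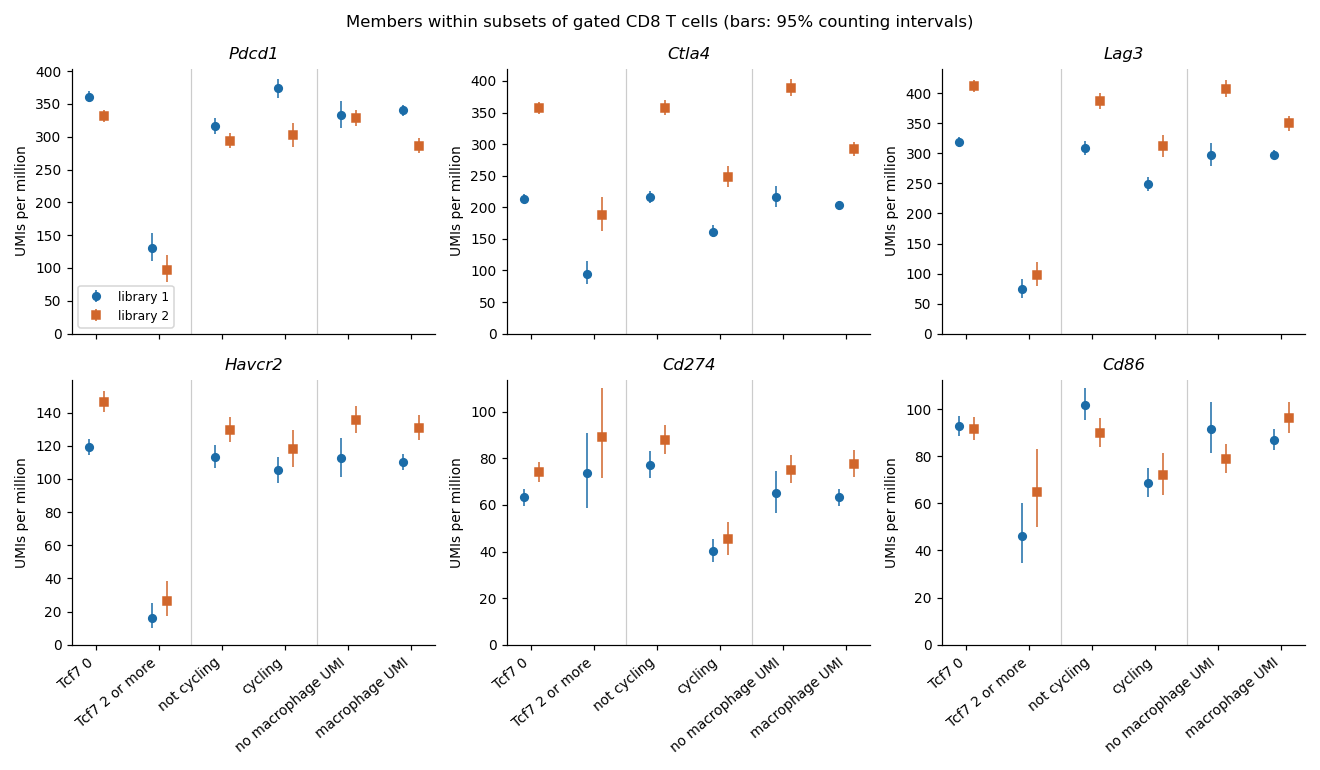
Level of 6 members in CPM (vertical axes from 0) in subsets of gated CD8 T cells, split by Tcf7 UMIs, by cycling genes and by macrophage marker UMIs, circles for library 1 and squares for library 2, with 95% counting intervals. Pdcd1, Ctla4, Lag3 and Havcr2 are lower in cells with at least 2 Tcf7 UMIs, Cd274 is not, and Ctla4 is higher in library 2 in all 6 subsets.

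By point values, each pair of receptors was found in the same CD8 T cells more often than the single shares would give. The share of cells with at least 2 receptors, however, was not higher. At 3000 UMIs per cell, at least 2 of the 6 receptors, Entpd1 counted among them, were detected in 59.2% of CD8 T cells (interval 57.1 to 61.3%) in library 1 and 61.9% (59.7 to 64.1%) in library 2, where the product of the single shares gives 61.5% and 66.3%. At least 3 were found in 31.3% and 36.1%, where the product gives 25.8% and 29.95%. Cells with none of the 6 made up 17.6% and 16.2%, where the product gives 9.035% and 7.22%. Cells with none and cells with 3 or more were therefore more frequent than independent detection would make them, and cells with 2 receptors were fewer, at 27.95% and 25.7% against 35.7% and 36.4%. Cells share a library, and depth was fixed by thinning, but RNA content and the free RNA of the droplet were not.

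The pair of Pdcd1 and Lag3 was the most frequent in library 1 and about level with Ctla4 and Lag3 in library 2. Both Pdcd1 and Lag3 were detected in 31.7% and 31.6% of CD8 T cells, against products of 25.8% and 24.8%, an odds ratio of 2.63 and 3.07. Of cells with Pdcd1, 60.2% and 65.5% also held Lag3, and of cells without it 36.5% and 38.2%. Lag3 with Havcr2 had odds ratios of 2.18 and 2.22, Pdcd1 with Havcr2 1.82 and 2.16, Ctla4 with Lag3 1.92 and 2.02, and Pdcd1 with Ctla4 1.71 and 1.92. Lower values were those of Ctla4 with Entpd1 (1.17 and 1.34), Ctla4 with Havcr2 (1.365 and 1.37) and Pdcd1 with Entpd1 (1.52 and 1.30). All 15 pairs were above 1 in both libraries, but pairs with Tigit rest on 8 to 34 cells. For Ctla4 with Entpd1 the product lay inside the counting interval of the joint share in both libraries. It did so for Havcr2 with Entpd1 in library 1, and for Ctla4 with Havcr2 and Pdcd1 with Entpd1 in library 2. For the pairs with Tigit it did so in library 1, and for some in library 2 too.

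In CD8 T cells the odds ratios with Pdcd1 were nearer 1 for Cd274 and Cd86 than for Pdcd1lg2. For Cd274 and Cd86 the product lay inside the counting interval of the joint share in both libraries. For Pdcd1lg2 it did so in library 2 only. Pdcd1 and Cd274 together were found in 7.77% and 8.67% of cells, against products of 8.52% and 8.98%, odds ratios of 0.80 and 0.92. Pdcd1 and Cd86 had 1.25 and 1.05, and Pdcd1 and Pdcd1lg2 1.61 and 1.32. The macrophage gene Csf1r with Pdcd1 had 0.67 and 0.70.

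In regulatory T cells the pair of Ctla4 and Lag3 was below its product by point values, while Lag3 with Pdcd1 and with Havcr2 was above it. For each of these pairs the product lay inside the counting interval of the joint share in both libraries. Pdcd1 with Lag3 had odds ratios of 2.24 and 4.88, on 22 and 9 cells with both, and Lag3 with Havcr2 1.77 and 1.61. Ctla4 and Lag3 were found together in 25.2% and 18.7% of them, against products of 27.5% and 23.6%, odds ratios of 0.59 and 0.36, on 246 and 166 cells. Of regulatory T cells with Ctla4, 33.2% and 26.3% held Lag3, and of those without it 45.8% and 50%. At least 2 receptors were found in 57.7% and 48.2%, where the products are 59.5% and 50.65%.

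**Figure D5:**
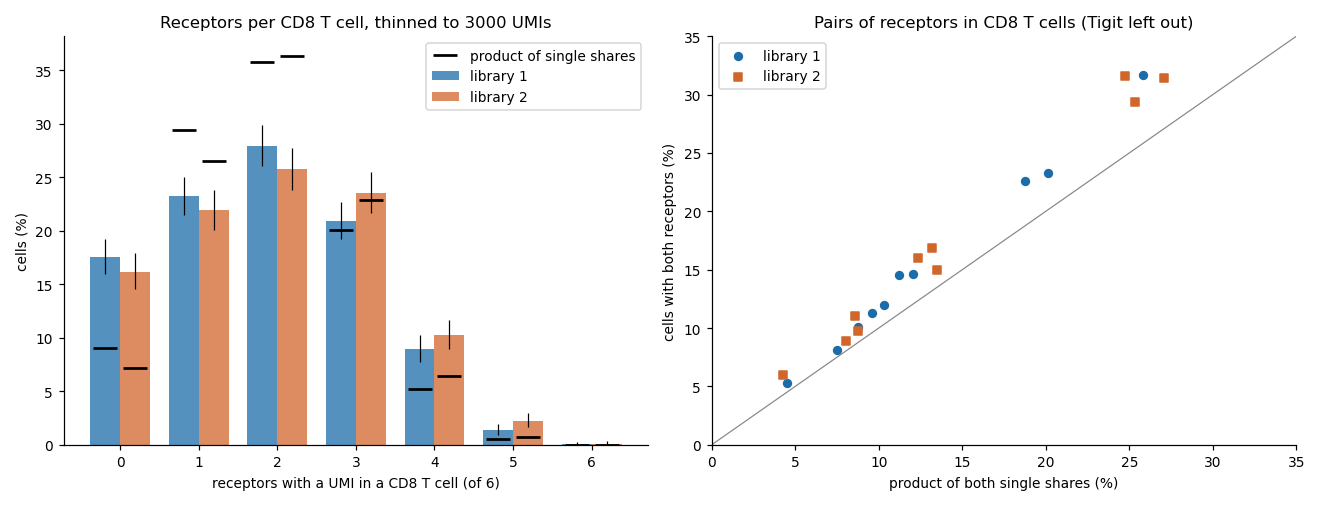
Left, percent of gated CD8 T cells, thinned to 3000 UMIs, with 0 to 6 of the 6 receptors detected, bars for both libraries with 95% counting intervals and black dashes for the product of the single shares. Right, percent of these cells with both receptors of a pair against the product of their single shares for the 10 pairs without Tigit; all points lie above the diagonal, the highest at 31.7% and 31.6% for Pdcd1 with Lag3.

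Among the ligands, Cd274 and Cd86 were the pair detected together most often in monocytes and macrophages. Classical monocytes held both in 16.04% (interval 13.2 to 19.3%) in library 1 and 11.3% (8.62 to 14.5%) in library 2, against products of 12.2% and 10.2%, odds ratios of 2.10 and 1.28. Macrophages had both in 11.4% and 13.5%, odds ratios of 2.38 and 1.54. Migratory dendritic cells held Cd274 with Pdcd1lg2 in 21 of 55 and 16 of 50 cells, or 38.2% and 32.0%, where the products are 36.6% and 33.4%. Cd274 with Cd80 was found in 18 and 22 of them.

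The wider pathway was read from a list of 34 genes for other checkpoint receptors, ligands, the adenosine route and signalling, of which 33 were in the matrix. In CD8 T cells 28 of the 33 could be compared; 3 were higher and 2 lower in library 2 by more than 1.5 times, against 7.21% of all genes, with a median log2 ratio of 0.04 for the 28 and for all genes. The higher ones were Icos, Lgals3, a galectin, at 580 and 883 CPM, and Tnfrsf14, the receptor known as HVEM, at 1.20 and 1.94 from 26 and 33 UMIs, whose interval included 0. The lower ones were Cd200r1, an inhibitory receptor of myeloid and T cells, at 36.0 and 21.5, and its ligand Cd200, at 12.4 and 7.39. In NK cells 22 could be compared and 0 passed 1.5 times, against 5.91% of genes. The list's highest member in CD8 T cells was Klrc1, which encodes the inhibitory receptor NKG2A, at 629 and 693, after Lgals3 in library 2. Its ligand H2-T23 was the highest of the list in NK cells, at 344 and 375. Regulatory T cells were led by Icos, and Nt5e, the enzyme that acts after CD39 in making adenosine, was 39.8 and 26.1 in them.

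In macrophages 22 of the 33 could be compared, with 2 higher and 1 lower, against 7.73% of genes past 1.5 times. Cd38, another enzyme of the adenosine route, was 23.5 and 39.5 CPM, Nectin2, a ligand of TIGIT, 4.02 and 8.37, and Cd28 4.61 and 2.30. Lgals3 led this class, at 1976 and 2678. Fgl2, a secreted regulator of immune responses, was 444 and 725 in other myeloid cells, where it was the 1 gene of 15 that passed, against 8.07% of genes. In classical monocytes 18 were compared, and the 3 that passed, Icos, Cd200 and Nt5e, were all lower in library 2, at 7.11, 9.99 and 10.4 CPM and then 3.003, 0.693 and 3.70, against 6.54% of genes past 1.5 times. Lymphocyte markers in these monocytes were lower in library 2 as well: those of T cells summed to 39.2 and 23.1 CPM and those of NK cells to 12.3 and 3.003. The gates limit both sums, as in macrophages. The part of lymphocyte RNA in the result was not tested. Of the other T cell classes, CD4 T cells had 2 of 19 past 1.5 times (10.5% of all genes), regulatory T cells 2 of 20 (9.62%), T cells with NK receptors 3 of 23 (7.13%) and other T cells 0 of 25 (7.53%). The counts in CD4 T and regulatory T cells are near the share of all genes.

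Genes with the most similar pattern were taken over 38 points, the 19 classes in each library, by Pearson's r of log2(CPM + 1), as a description of points that share libraries. The classes were gated on Cd3 genes among other markers, so genes such as Cd3d are separated over these points by construction. Tigit had 0 UMIs in both libraries in several classes, such as mast cells, neutrophils and cDC1, and these points weigh on its r. Ctla4 was most like Icos (r = 0.95), Ndfip1 (0.95) and Trac (0.92), Pdcd1 like Cd247 (0.91), Cd3d (0.90) and Trbc2 (0.89), and Lag3 like Sla2 (0.88), Tle5 (0.85) and Mxd4 (0.85). Havcr2 had Smpdl3b (0.85), Sgk1 (0.84) and Hnrnpll (0.79), Tigit had Klrg1 (0.94), Ctla4 (0.91) and Gm47050 (0.89), and Entpd1 had Gm43775 (0.79), P4ha1 (0.78) and Cxcl2 (0.77). Of the ligands, Cd274 was most like Ifrd1 (0.87), Resf1 (0.81) and Txnrd1 (0.81), and Pdcd1lg2 like Stat4 (0.86), Nae1 (0.85) and Ly75 (0.84). Cd80 had Marcksl1 (0.88), Marcks (0.83) and Plekhm2 (0.82), and Cd86 had Cd83 (0.87), Cd40 (0.86) and Ift172 (0.84). No member was among the 3 genes closest to another, apart from Ctla4 for Tigit.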

How the data were processed

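The deposited matrix holds raw UMI counts, whole numbers with no scaling applied, made with Cell Ranger 6.1.2 on build mm10, per the submitters' processing notes and the file headers. Gene annotation, subsampling and cell calling were not given in the sources used here. For this work, barcodes under 500 genes or above 10% mitochondrial UMIs were dropped (456 and 366 in libraries 1 and 2), and 11 barcode sequences occurred in both libraries. No doublet caller was run; cells with Cd3 and C1q transcripts formed a class of their own.

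Classes were gated on sums of marker UMIs, such as at least 4 of Cd3 genes with at least 3 of Cd8a and Cd8b1 for CD8 T cells. NK and myeloid classes took only cells with fewer than 2 Cd3 UMIs. Apart from the T and macrophage class, T and NK classes held cells with fewer than 5 C1q UMIs. The UMI limits were set after the depth of the files was seen, and 847 (10.5%) and 468 (7.66%) cells stayed outside all gates. Counts were summed per class and library. Intervals are exact Poisson for levels, Clopper-Pearson for shares and conditional binomial for ratios, at 95%, and log2 ratios carry a pseudocount of 0.5 UMI; UMIs of 1 cell are not independent, so these intervals are too narrow. Simulated counts served to test the code for ratios. For shares, cells were thinned to 3000 UMIs, which left out 567 and 456 shallower cells. Named genes were all 10 members, the pathway genes that were highest in a class described or past 1.5 times, and the 3 genes most similar to each member among those at 50 CPM or more in a class. Of pathway and marker symbols, Eat2 and Tcrg-C1 matched no feature. The members and lists were chosen with earlier results of these data known. Coordinates are from GENCODE M21 (GRCm38). Python 3.11.15, numpy 2.4.6, scipy 1.17.1 and pandas 2.3.3 were used. Alternatives covered the gates, cell filter, depth, scaling and thinning.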

Additional observations from a re-analysis of the deposited data

Results flagged for a closer look

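Of the 10 members, 6 had log2 ratios of library 2 over library 1 with opposite signs in a pair of classes, each with a counting interval that excluded 0. Such intervals are common: 33.0% of all genes had one in CD8 T cells, 23.1% in neutrophils and 19.45% in other T cells. The share of all genes with opposite signs in a pair of classes was not determined, so the count is not a trait of the members. The difference between the classes was not tested. Pdcd1 was -0.95 in regulatory T cells and 0.19 in other T cells, but -0.34 (-1.32 to 0.66) in regulatory T cells without macrophage UMIs, and 0.0011 (-0.21 to 0.20) in other T cells without the deepest 5% of cells. Lag3 was -0.75 in plasmacytoid dendritic cells, on 21 and 26 cells, and 0.34 in CD8 T cells. Havcr2 was -1.14 in cDC2 and 0.32 in other T cells, and on counts thinned to 3000 UMIs a cell -0.39 (-2.38 to 1.28) and 0.37 (-0.10 to 0.84). Entpd1 was -0.51 in neutrophils and 0.40 in other myeloid cells. Cd274 was -1.01 in neutrophils and 0.49 in other T cells. Under the stricter cell filter the neutrophil values were -0.29 (-0.72 to 0.16) for Entpd1 and -0.30 (-0.74 to 0.15) for Cd274. Cd86 was -0.69 in CD4 T cells and 2.27 in neutrophils, but -0.10 (-1.52 to 1.52) in CD4 T cells without macrophage UMIs and 0.45 (-1.20 to 2.67) in neutrophils without the deepest 5% of cells. In the neutrophils, 17 of the 51 UMIs of library 2 came from a single cell.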

How the results depend on the processing

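No paired analysis was possible because each group has 1 sample and the libraries carry no genotype. Of 92 ratios of members, 35 had an interval that excluded 0. For all genes that share ran from 14.0% (non-classical monocytes) to 33.0% (CD8 T cells) over the classes where it was determined. Under all alternatives together (198 values for the 35 ratios), 22 values kept the sign but fell outside the main interval. A further 2 had the other sign, both without cells holding a macrophage marker UMI: Pdcd1lg2 in NK cells (-0.051) and Cd274 in T cells with NK receptors (-0.21). Without those cells the log2 ratio of Ctla4 was 0.85 in CD8 T cells and 1.03 in NK cells, that of Pdcd1 in regulatory T cells was -0.34, and in library 1 at least 2 receptors were found in 52.5% of CD8 T cells, Pdcd1 with Lag3 in 26.9% and Pdcd1 in 47.2%. On counts thinned to 3000 UMIs a cell, log2 ratios were 1.10 for Ctla4 in NK cells, -1.57 for Pdcd1 in regulatory T cells and -1.68 for Cd274 in neutrophils. Under a stricter cell filter (from 1000 genes, up to 5% mitochondrial UMIs), Cd274 in neutrophils of library 1 was 449 CPM and its log2 ratio -0.30. An alternative added after seeing the data, neutrophils from 200 genes, held 79 and 141 cells and kept every neutrophil value inside its interval.

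Ctla4 in regulatory T cells was 1019 CPM in library 1 with gates 1 UMI stricter, 1048 and 987 in libraries 1 and 2 without the deepest 5% of cells, and 1103 and 1078 as a mean over cells, which also gave 324 for Pdcd1 and 92.2 for Cd86 in CD8 T cells of library 1. Shares followed the depth. At 5000 UMIs at least 2 receptors were found in 75.5% and 75.6% of CD8 T cells, Pdcd1 with Lag3 in 49.97% and 48.1%, and Cd274 with Cd86 in 23.8% and 20.2% of classical monocytes. Without thinning the same shares were 79.7% and 79.4%, 61.4% and 55.5%, and 36.1% and 32.0%. Pdcd1 alone was found in 71.3% and 67.2% of CD8 T cells without thinning and in 40.7% and 39.5% at 2000 UMIs. Counting a receptor from 2 UMIs, Pdcd1 with Lag3 came to 43.9% and 39.5%.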
